A study of Mus musculus with 12 samples.

Results

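Interferon-stimulated genes are the genes a cell switches on when it receives an interferon signal. The 45 genes described here were taken by name from the 55679 genes of the table, by a rule that uses no measured value. The list was nevertheless chosen with earlier results of these data known. The 45 genes cover the transcription factors of the pathway, sensors of viral nucleic acid, antiviral effectors and GTPases of cell-autonomous immunity. RNA of whole lung and whole heart from 6 adult male mice on the 129S6/SvEvTac background was sequenced, 3 Adam19 wild type (WT) and 3 Adam19 knockout (KO) mice. In the KO mice exons 6 and 7 of both Adam19 copies were replaced with a tdTomato construct, and no mouse was infected or treated, as far as the labels say. The lung and the heart of a mouse carry the same replicate number, so that the 12 libraries come from 6 animals. Of the 45 members, 11 lie on chromosome 11, the chromosome of Adam19, and a KO mouse carries the targeted allele together with the chromosome 11 sequence linked to it. The number before the dot in the mouse identifiers is never shared between WT and KO animals, and the labels do not say what it means. Neither the linked sequence nor this number can be told apart from genotype in this design.

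Interferons come in 3 types. Type I interferons (interferon alpha and beta) and type III interferons act through receptors whose signal reaches genes with a DNA element called the interferon-stimulated response element (ISRE). Type II interferon (interferon gamma) acts through another element, the gamma-activated site (GAS). Many of the genes have a basal level without infection, which low tonic interferon signalling, among other inputs, is known to maintain. The lung, exposed to inhaled microbes, and the heart, a muscle with few resident immune cells, therefore offer contrasting settings for the same set of genes.

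Values are log2 normalized abundances of genes as deposited by the authors. In a gene with 1 transcript, such a value is log2(1 + estimated count) plus a constant for the library. Genes entered a comparison if 3 or more of its libraries had a value of 3.46 or above. In a gene with 1 transcript that value equals 10 estimated counts at a constant of 0, and the constants ranged from −0.63 to 0.80. A gene was called when limma gave an adjusted p under 0.05 (Benjamini-Hochberg over all genes tested). The fold change also had to be at least 1.5 and the higher group mean at least 6. The libraries held from 17674788 to 35862932 estimated counts, and the 7SL RNA gene Rn7s1 took from 2.1% to 34.0% of the summed abundance. Adam19 was at 9.14, 9.41 and 9.12 in WT lungs and at 4.44, 3.21 and 3.50 in KO lungs (log2 difference −5.51, standard error 0.33, adjusted p = 0.000186 from limma). In hearts its values were 9.17, 9.25 and 10.27 in WT and 6.67, 6.01 and 6.56 in KO mice (log2 difference −3.14, standard error 0.31, adjusted p = 0.00558 from limma). With summed transcripts these differences were −8.87 and −7.07. Marker genes matched the labelled tissues. The 4 cardiomyocyte markers summed to 20.4 to 20.8 in hearts and 13.2 to 14.7 in lungs, and the 4 lung epithelial markers to 18.5 to 18.9 in lungs and 6.06 to 10.5 in hearts. All of these libraries are bulk tissue, in which a difference in the number of cells of a type and a difference in RNA per cell cannot be told apart.

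The members spanned a wide range of basal levels. Per transcript length (TPM, a share of all transcripts that was computed from the estimated counts), the highest was Ifitm2, a membrane protein that blocks the entry of viruses, at 119.9 ± 50.6 in lungs and 46.3 ± 7.64 in hearts (SD, n = 6). Its paralog Ifitm3 followed at 58.0 ± 23.1 in lungs and 24.7 ± 5.09 in hearts (SD, n = 6). Irf1, a transcription factor that responds to interferon gamma, reached 40.7 ± 19.7 in lungs and 11.3 ± 1.90 in hearts (SD, n = 6). At the other end stood Oas3, with a TPM of 0.176 in lungs and 0.0288 in hearts. TPM values are shares of all RNA, of which Rn7s1 took a more variable part in lungs than in hearts, and its part in the wider spread of the lungs was not tested.

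Whether the loss of Adam19 shifted the basal interferon programme was asked within each tissue. In the lung all 45 members were tested and 0 were called, against 0.0665% of the 16551 genes tested (11 genes). An unadjusted p under 0.05 was reached by 3 members, Ifi35, Irgm2 and Isg15, which is 6.67% of them beside 5.93% of all genes tested, and their adjusted p-values were at least 0.806. The log2 difference (KO minus WT) was above 0 in 20 members (51.6% of all genes) and below 0 in 25, with a median of −0.04 over the members and 0.01 over all genes tested. In the heart 42 members were tested (Zbp1, Oas3 and Mx1 were too low) and 0 were called, against 0.085% of the 15303 genes tested (13 genes). Only Ifit3 had an unadjusted p under 0.05 there, 2.38% of the members beside 7.46% of all genes tested. The log2 difference was above 0 in 27 members and below 0 in 15, with a median of 0.14 beside 0.03 over all genes tested, and 55.0% of all genes were above 0. limma-voom also called 0 members in each tissue.

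In the lung, the 95% interval of the KO to WT ratio lay within 1.5-fold in either direction for 18 of 45 members, within 2-fold for 34 and within 3-fold for 43. In the heart it lay within 1.5-fold for 12 of 42 members, within 2-fold for 30 and within 3-fold for 41. A change of 3-fold or more was thus outside the interval of nearly every member, whereas the intervals of most members reached past 1.5-fold.

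**Figure D1:**
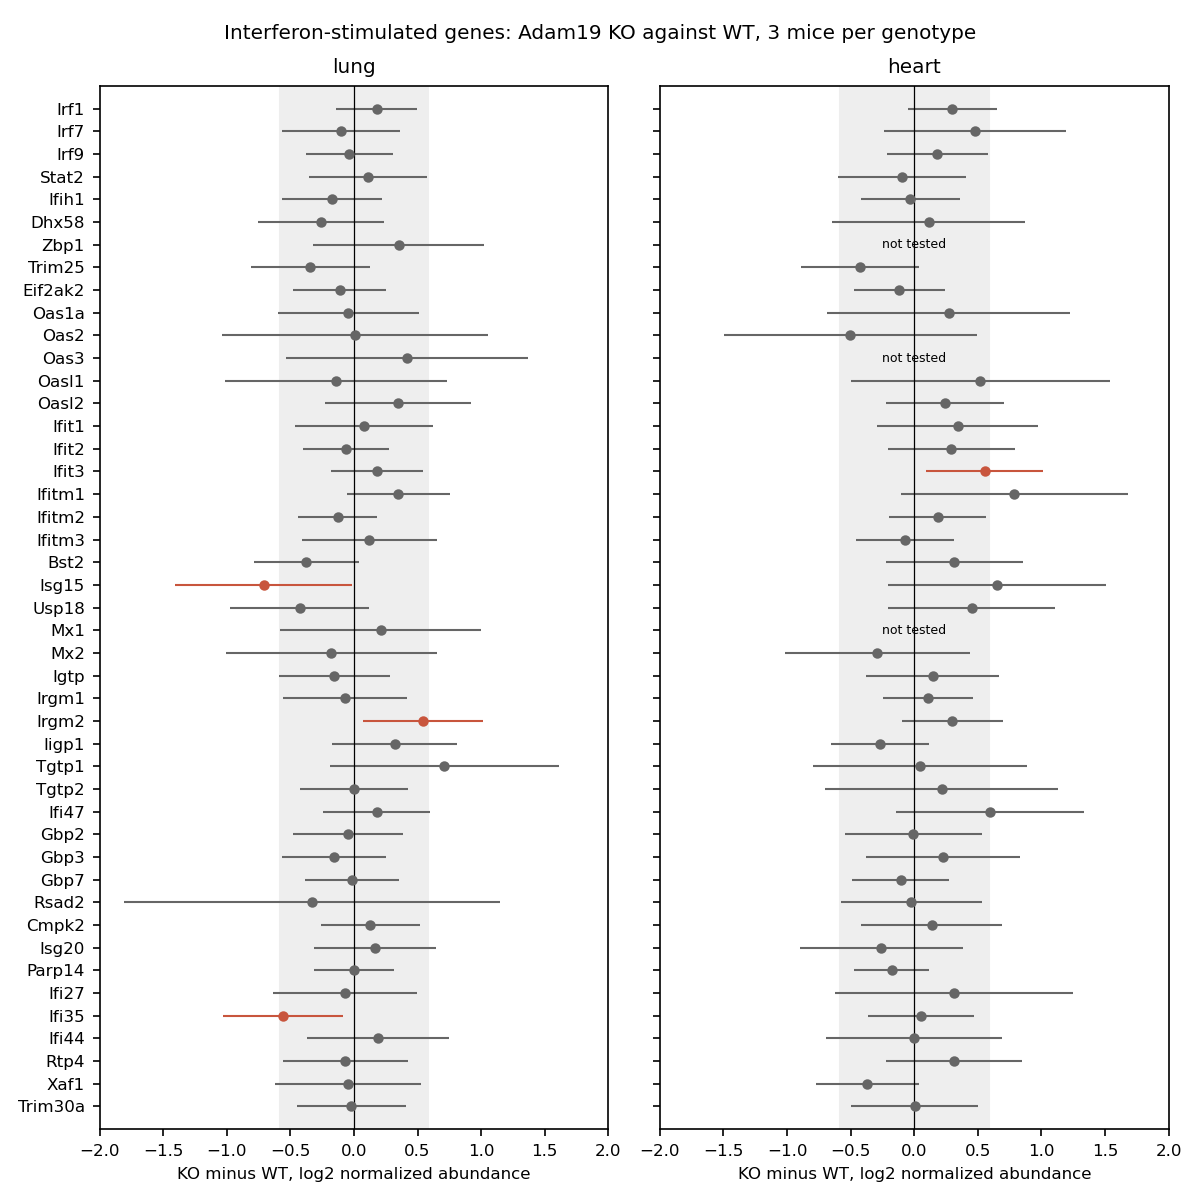
KO minus WT difference of each of the 45 members in lung (left) and heart (right), in log2 normalized abundance, with the 95% interval from limma and 3 mice per genotype. The grey band marks 1.5-fold in either direction and red marks an unadjusted p under 0.05, reached by 3 members in the lung and 1 in the heart, none of which was called; 3 members were not tested in the heart.

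Ifi35 and Bst2 were lower in every KO lung than in every WT lung. Ifi35 (chromosome 11, 101339221 to 101352693 of GRCm39), an induced protein with leucine zipper-like features, was at 9.57, 9.66 and 10.24 in WT and at 9.11, 9.44 and 9.24 in KO lungs (log2 difference −0.56, standard error 0.21, adjusted p = 0.806 from limma). Its heart values were 8.77, 8.25 and 8.31 in WT and 8.37, 8.41 and 8.70 in KO mice, and there the genotypes overlapped. Bst2 (chromosome 8, 71986895 to 71990114), or tetherin, which holds budding virions on the cell surface, was at 8.20, 8.08 and 8.51 in WT and at 7.95, 7.87 and 7.84 in KO lungs (log2 difference −0.37, adjusted p = 0.836 from limma). In hearts Bst2 was at 6.66, 6.55 and 7.25 in WT and at 7.22, 7.27 and 6.91 in KO mice, with the groups overlapping.

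Ifitm1 and Irf1 were higher in every KO lung than in every WT lung. Ifitm1 (chromosome 7, 140546316 to 140549743), a relative of Ifitm2 and Ifitm3 found mainly at the cell surface, was at 8.12, 8.34 and 8.39 in WT and at 8.43, 8.81 and 8.66 in KO lungs (log2 difference 0.35, adjusted p = 0.837 from limma). The heart values were 5.15, 4.15 and 4.60 in WT and 5.86, 5.54 and 4.84 in KO mice, a log2 difference of 0.79 with overlapping groups (adjusted p = 0.705 from limma). Irf1 was at 10.84, 10.72 and 10.60 in WT and at 10.95, 10.88 and 10.88 in KO lungs, and at 9.15, 8.74 and 8.78 in WT and 9.27, 9.07 and 9.24 in KO hearts. Its log2 differences were 0.18 and 0.30, and in the heart the highest WT library lay inside the KO range.

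In all, 6 of the 45 members (13.3%) had lung groups that did not overlap, beside 12.8% of all genes tested there. Irgm2, Ifitm1 and Irf1 were the 3 higher (6.41% of all genes) and Ifi35, Isg15 and Bst2 the 3 lower in KO (6.4%). In the heart 6 of 42 members (14.3%) had groups that did not overlap, beside 13.0% of all genes. Ifit3, Isg15, Rtp4 and Oasl2 were the 4 higher (7.82% of all genes) and Xaf1 and Isg20 the 2 lower in KO (5.23%). Both shares are close to those of all genes.

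In the heart, the smallest p belonged to Ifit3 (chromosome 19, 34560899 to 34566443), which encodes a protein of the IFIT family. It was at 7.45, 6.97 and 6.93 in WT and at 7.49, 7.79 and 7.72 in KO hearts, a 1.47-fold difference (log2 0.55, standard error 0.20, adjusted p = 0.622 from limma). The lowest KO heart was just above the highest WT heart. The same gene was at 10.40, 10.39 and 10.48 in WT and at 10.41, 10.56 and 10.85 in KO lungs. The transcript of Ifit3 shares 97.2% of 2030 nucleotides with that of Ifit3b, between which Salmon divides reads, and the sum of both genes differed by 0.50 on the log2 scale in the heart. Trim25, a ubiquitin ligase of the RIG-I route, stood second, at 9.22, 9.55 and 9.61 in WT and 9.09, 9.38 and 8.64 in KO hearts (log2 difference −0.43, adjusted p = 0.693 from limma). In lungs it was at 9.97, 10.39 and 10.25 in WT and at 9.995, 9.48 and 10.10 in KO mice, and the genotypes overlapped in both tissues.

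Isg15 (chromosome 4, 156283883 to 156285303) encodes a ubiquitin-like protein that is attached to other proteins, and Usp18 the protease that removes it and also damps the type I interferon receptor. Isg15 was at 5.21, 5.43 and 5.04 in WT lungs and at 4.61, 4.64 and 4.31 in KO lungs. In hearts it was at 4.18, 3.53 and 4.38 in WT and at 4.70, 4.62 and 4.72 in KO mice. Every KO lung was thus below every WT lung and every KO heart above every WT heart, a pattern of opposite separation that 0.998% of the genes tested in both tissues showed (143 of 14330). limma gave log2 differences of −0.71 for lungs (standard error 0.31, adjusted p = 0.828) and 0.65 for hearts (standard error 0.38, adjusted p = 0.740). The difference between the tissues, tested as an interaction in 1 model of all 12 libraries, was −1.36 on the log2 scale (standard error 0.43), and its adjusted p over 17666 genes was 0.533 from limma.

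Usp18 (chromosome 6, 121222848 to 121247877) had the same signs without separating the genotypes. It was at 8.08, 8.10 and 8.76 in WT and at 7.93, 8.13 and 7.60 in KO lungs, and at 5.51, 4.96 and 5.18 in WT and 5.41, 5.95 and 5.64 in KO hearts. The interaction of Usp18 was −0.88 on the log2 scale (adjusted p = 0.623 from limma), and that of Bst2 was −0.69 (adjusted p = 0.634). These were the 3 members with an unadjusted interaction p under 0.05, 6.67% of 45 beside 7.88% of all genes tested, and 0 members were called, against 0.00566% of all genes (1 gene). The interaction was above 0 in 16 members and below 0 in 29, while 46.1% of all genes were above 0. Isg15 lies low in both tissues, below the group mean of 6 that a call requires, so it could not have been called at any p.

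**Figure D2:**
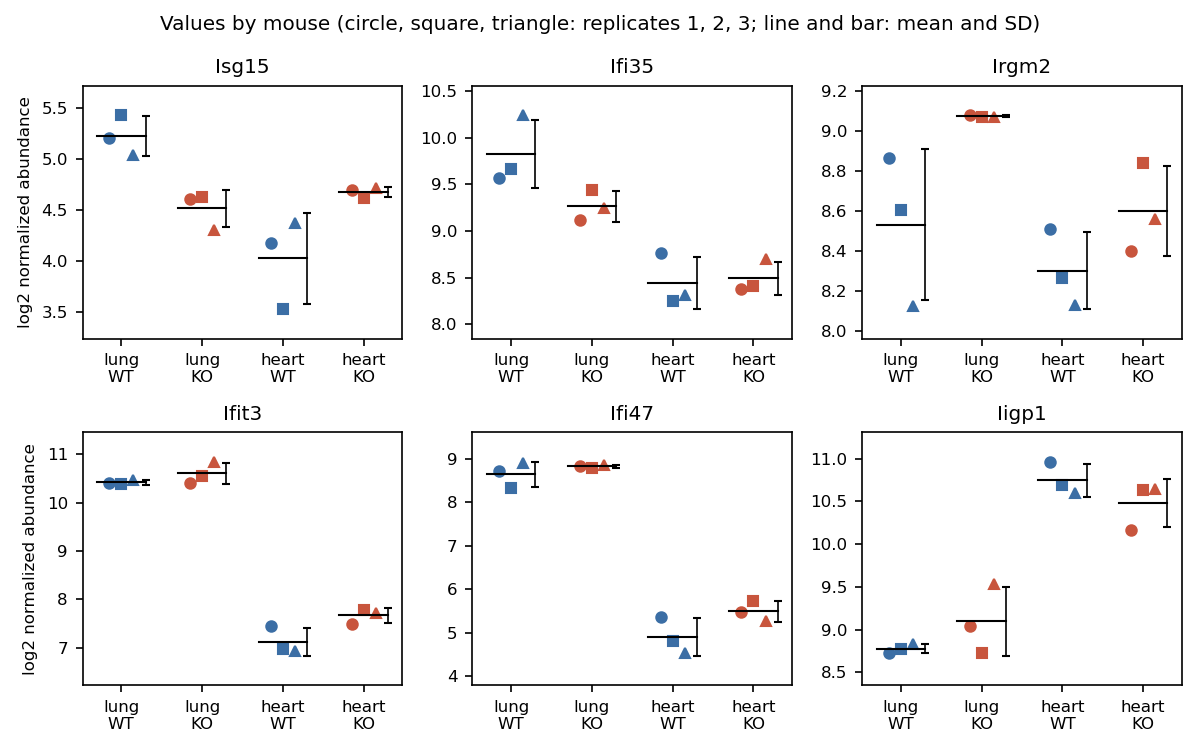
Log2 normalized abundance of 6 members in each library (symbols are mice 1, 2 and 3 of a genotype, lines the group mean and bars the SD, n = 3), with each vertical axis set to its gene. Isg15 was lower in KO lungs and higher in KO hearts, and in KO lungs Ifi35 was lower and Irgm2 higher, none of them called. Ifit3 and Ifi47 stood far higher in lung, and Iigp1 was higher in heart.

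The 11 members on chromosome 11 were examined together because they share the chromosome of the targeted gene. Irgm1, Tgtp1, Tgtp2 and Ifi47 lie 2.71 to 2.93 Mb from Adam19, Irf1 7.62 Mb, and Igtp and Irgm2 12.1 Mb away. Xaf1 (26.2 Mb), Trim25 (42.9 Mb), Dhx58 (54.5 Mb) and Ifi35 (55.3 Mb) are more distant. In the lung their median log2 difference was −0.05, with 5 above and 6 below 0, and in the heart it was 0.11, with 9 above and 2 below 0. Members on other chromosomes had medians of −0.03 in the lung and 0.18 in the heart. Of the 11, Irgm2 and Ifi35 had an unadjusted p under 0.05 in the lung and none in the heart.

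Of these 11, 6 encode immunity-related GTPases (IRG proteins), which assemble on the vacuoles of intracellular parasites and bacteria. Irgm1, Irgm2 and Igtp (Irgm3) are the regulatory members and Tgtp1, Tgtp2, Iigp1 and Ifi47 effector-type members of this family. Irgm1 (chromosome 11, 48752795 to 48763164) was at 9.14, 8.82 and 9.62 in WT and at 9.03, 9.21 and 9.13 in KO lungs, and at 8.75, 8.39 and 8.39 in WT and 8.64, 8.53 and 8.69 in KO hearts. Igtp (chromosome 11, 58089840 to 58098417) was at 8.63, 8.22 and 8.64 in WT and at 8.25, 8.23 and 8.55 in KO lungs, and at 8.73, 7.86 and 8.08 in WT and 8.23, 8.33 and 8.54 in KO hearts. Both overlapped between genotypes in both tissues. Ifi47 (chromosome 11, 48967412 to 48987813) was at 8.71, 8.33 and 8.89 in WT and at 8.83, 8.78 and 8.85 in KO lungs, and at 5.37, 4.80 and 4.52 in WT and 5.48, 5.73 and 5.26 in KO hearts. Its log2 difference of 0.59 in the heart was the largest of the 11 and was not called (adjusted p = 0.734 from limma).

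Tgtp1 and Tgtp2 are near-identical neighbours, whose transcripts share 99.8% of 2811 nucleotides, so that the division of reads between them is uncertain. Tgtp1 was at 6.20, 5.25 and 6.84 in WT and at 6.57, 7.19 and 6.66 in KO lungs, and at 5.66, 5.37 and 4.51 in WT and 4.86, 5.43 and 5.38 in KO hearts. Tgtp2 was at 8.80, 8.60 and 9.10 in WT and at 8.998, 8.84 and 8.67 in KO lungs, and at 6.56, 5.83 and 5.02 in WT and 6.19, 6.31 and 5.55 in KO hearts. Tgtp1 had a log2 difference of 0.71 in the lung (0.22 with summed transcripts), with overlapping groups. The sum of both genes differed between genotypes by 0.11 on the log2 scale in the lung and 0.17 in the heart. Dhx58 (LGP2), a helicase that tunes the RNA sensors, was at 6.86, 6.72 and 6.70 in WT and at 6.25, 6.70 and 6.54 in KO lungs, and at 5.01, 4.77 and 4.59 in WT and 4.57, 5.30 and 4.83 in KO hearts.

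Irgm2 (chromosome 11, 58090444 to 58113615) was at 8.86, 8.60 and 8.12 in WT and at 9.08, 9.07 and 9.07 in KO lungs, and every KO lung was above every WT lung (log2 difference 0.54, standard error 0.21, adjusted p = 0.806 from limma). Its heart values were 8.51, 8.27 and 8.13 in WT and 8.40, 8.84 and 8.56 in KO mice (log2 difference 0.30). Xaf1 (chromosome 11, 72192397 to 72204559), a zinc finger protein that opposes the apoptosis inhibitor XIAP, was at 8.56, 8.76 and 9.38 in WT and at 8.62, 8.73 and 9.21 in KO lungs. In hearts it was at 7.26, 7.47 and 7.19 in WT and at 7.04, 6.93 and 6.86 in KO mice (log2 difference −0.37, adjusted p = 0.693 from limma). At the gene level neither was called in either tissue. The value of Xaf1 depended on how its transcripts were combined, which is not given in the sources used here. When the estimated counts of its transcripts were summed instead, limma gave a log2 difference of −1.35 for lungs, with an adjusted p of 0.434, and of −1.38 for hearts, with an adjusted p of 0.0531.

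The transcripts behind these 2 genes differed between the genotypes more than the deposited gene values. This was noticed in the transcript table, and the tests on transcripts were therefore chosen after the values were seen. For Irgm2 the reads fell on 3 transcripts that start at 2 places. ENSMUST00000058704.9 has its first exon at 58090444 to 58090605, inside the first exon of Igtp. ENSMUST00000209079.2 and ENSMUST00000108836.2 have theirs at 58105789 to 58105996 and 58105854 to 58105996, between Igtp and the Irgm2 coding exon. The transcript from the upstream start had 162, 277 and 279 estimated counts in WT lungs and 0, 44.1 and 37.5 in KO lungs. In hearts it had 170.1, 152 and 100.2 in WT and 27.2, 8.1 and 6.3 in KO mice. ENSMUST00000108836.2 had 179, 0 and 0 in WT and 579.6, 693 and 327 in KO lungs.

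The picture was the same in the heart of each mouse. ENSMUST00000108836.2 had 151, 0 and 0 estimated counts in WT and 293, 419 and 359 in KO hearts. It made up from 74.6% to 92.6% of the counts of Irgm2 in the 6 KO libraries. In WT replicates 2 and 3 it was listed at 0 in both tissues, where the upstream transcript held from 62.1% to 85.4%. WT replicate 1 lay between, with 46.2% on ENSMUST00000108836.2 and 41.8% on the upstream transcript in the lung and 38.7% and 43.7% in the heart. The third transcript, ENSMUST00000209079.2, took from 7.4% to 37.9% in all 12 libraries.

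In Xaf1 the main difference lay between transcripts with the same first exon. ENSMUST00000146233.8 has 6 exons, and ENSMUST00000140842.9 joins exon 2 to exon 5 of it and lacks 2 exons. The longer transcript had 291, 582 and 961 estimated counts in WT and 120.1, 128 and 85.9 in KO lungs. It had 159, 132 and 91.4 in WT and 45.8, 28.4 and 38.2 in KO hearts. As a share of the gene, this was 79.1% to 91.9% in the 6 WT and 32.6% to 48.1% in the 6 KO libraries, and the genotypes did not overlap in either tissue.

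The transcript without the 2 exons took from 39.9% to 57.8% in the KO libraries. In WT mice it was listed at 0 in the lungs of replicates 2 and 3 and the heart of replicate 2 and took 16.2%, 15.6% and 16.3% in the lung of replicate 1 and the hearts of replicates 1 and 3. WT replicate 1 was again the WT lung nearest to the KO lungs. A minor transcript whose first exon starts further downstream and has the same end (ENSMUST00000094041.4) took from 0.41% to 4.68% in WT and 15.2% to 20.1% in KO lungs. In hearts it took from 0% to 4.10% in WT and 7.37% to 11.6% in KO mice, and the genotypes overlapped in neither tissue. ENSMUST00000151440.8 was at 0 in all KO libraries and in 3 of the 6 WT libraries. The missing exons, which are wholly coding in the longer transcript and hold 285 nucleotides together (a multiple of 3), are shown because the 2 transcripts differ in them. They lie on the forward strand of GRCm39, at chr11:72195492-72195687 (196 nucleotides) and chr11:72197390-72197478 (89 nucleotides), and no letters are in capitals.
Xaf1 exon 3: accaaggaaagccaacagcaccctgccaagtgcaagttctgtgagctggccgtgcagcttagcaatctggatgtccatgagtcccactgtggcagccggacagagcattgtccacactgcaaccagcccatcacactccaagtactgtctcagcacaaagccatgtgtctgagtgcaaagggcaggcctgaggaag
Xaf1 exon 4: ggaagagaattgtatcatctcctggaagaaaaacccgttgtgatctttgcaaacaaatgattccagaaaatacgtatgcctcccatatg

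Such a separation was rare. Among 10051 genes with several transcripts and at least 30 estimated counts in every library, 9 genes (0.0895%) had a transcript whose share did not overlap between genotypes in either tissue, in 1 direction, with mean shares at least 20 percentage points apart in each. Irgm2 and Xaf1 were 2 of the 9, and 24 members could be examined. Mrpl55 is the third of the 9 on chromosome 11, on which 828 of the 10051 genes lie. These limits were set after the shares of Irgm2 and Xaf1 had been seen, and the lung and heart of a mouse are not independent samples, so the counts are a description.

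**Figure D3:**
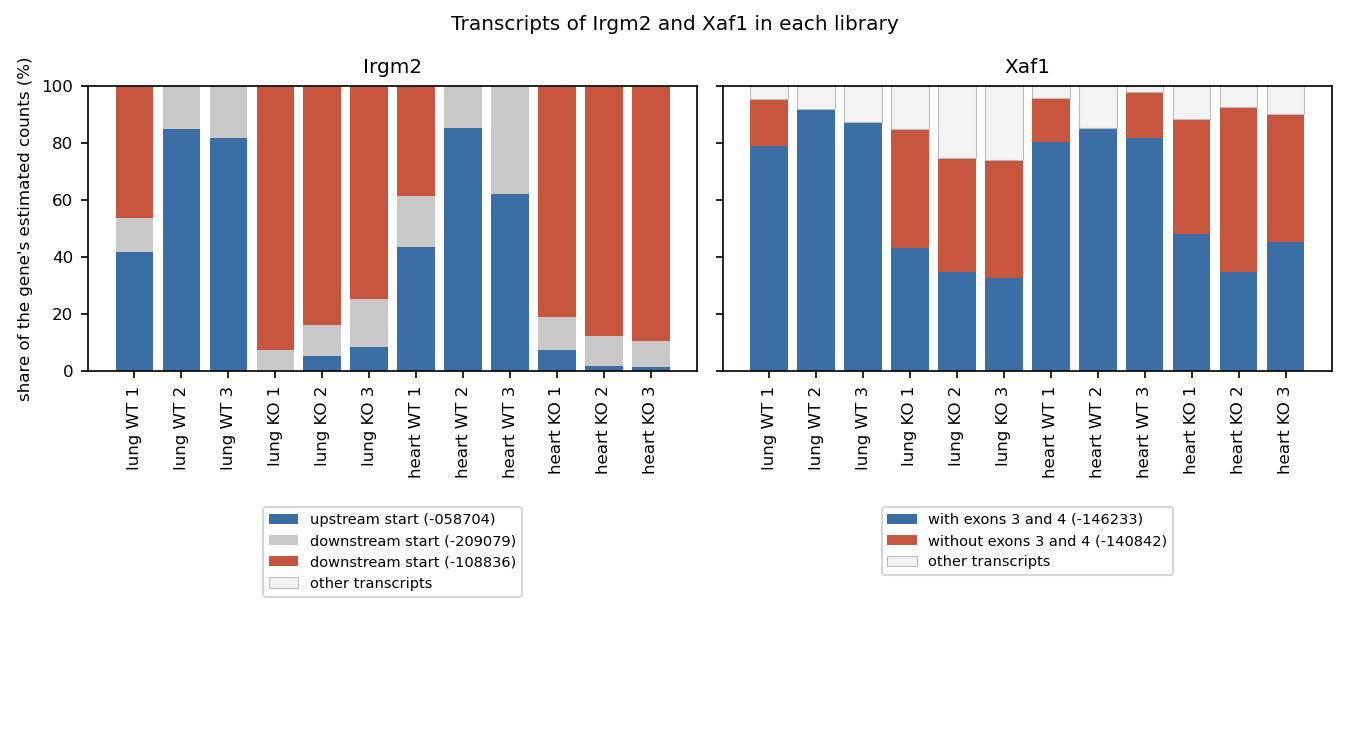
Share of the estimated counts of Irgm2 (left) and Xaf1 (right) on each transcript, in percent, 1 bar per library, with transcripts named in the legend by start or exons. The KO libraries had 74.6% to 92.6% of Irgm2 on the transcript drawn in red and 39.9% to 57.8% of Xaf1 on the transcript without exons 3 and 4, while WT replicate 1 lay between for Irgm2 in both tissues.

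Tested with limma over all transcripts with the filter and thresholds used for genes, 0 of 85 member transcripts were called in the lung and 0 of 68 in the heart, beside 0.1% and 0.0625% of all transcripts. An unadjusted p under 0.05 was reached by 10 member transcripts in the lung (11.8%, beside 6.08% of all) and 5 in the heart (7.35%, beside 5.72%). The longer Xaf1 transcript had the smallest adjusted p, 0.122 in the heart (log2 difference −2.32, standard error 0.30) and 0.124 in the lung (log2 difference −2.57, standard error 0.34, both from limma). For the upstream Irgm2 transcript the log2 difference was −4.47 in the lung and −4.08 in the heart, with adjusted p-values of 0.813 and 0.181 from limma. The number called depended on WT replicate 1. Without it, ENSMUST00000108836.2 was called by limma for lungs (adjusted p = 0.0196) and hearts (adjusted p = 0.0295). That transcript was then at 0 in all remaining WT libraries and passed the filter only through the KO libraries, so these p-values give no support. The longer Xaf1 transcript was also called for lungs without WT replicate 1 (adjusted p = 0.0437 from limma). Without any other library 0 member transcripts were called. These counts are estimates by which Salmon divides reads between overlapping transcripts of the reference sequence, and junction reads were not analysed here.

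A further chromosome 11 member, Irf1, had a minor transcript (ENSMUST00000019043.13, first exon at 53661321 to 53661517) with 231, 290.1 and 105 estimated counts in WT and 60.9, 44.4 and 52.6 in KO lungs. It made up 14.8%, 20.4% and 5.5% of the gene in WT and 2.6%, 1.5% and 3.3% in KO lungs. In hearts it had at most 49.1 counts and the genotypes overlapped, so the lung pattern was not seen there.

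Both starts of Irgm2 carry the DNA elements of the pathway in the reference genome. In the 300 bases before the upstream start, a GAS motif begins 107 and an ISRE motif 96 bases before it, and before ENSMUST00000209079.2 they begin 61 and 50 bases before the start. The latter pair also lies before ENSMUST00000108836.2, which starts a little downstream. Before Tgtp2 such a pair begins at 89 and 78 bases, with the same spacing. The upstream window lies in an exon of Igtp and is not shown. The last 150 bases before ENSMUST00000209079.2 (chr11:58105639-58105788, GRCm39, forward strand) are shown because the KO libraries drew most Irgm2 counts from transcripts that start next to them, with both motifs in capitals.
Irgm2: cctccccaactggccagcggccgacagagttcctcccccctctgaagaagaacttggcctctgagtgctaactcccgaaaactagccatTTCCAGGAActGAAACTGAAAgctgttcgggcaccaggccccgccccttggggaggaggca

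The motifs were searched on both strands of the 300 bases before the start of 17605 tested genes in GRCm39, with starts from GENCODE vM39. For the counts 1 start per gene was used, that of the transcript marked as canonical in the annotation. In some members most estimated counts lay on another transcript. The start used for Iigp1 is that of ENSMUST00000237185.3, while a mean of 96.3% of its heart counts lay on ENSMUST00000066912.13. The ISRE was taken as GAAA, any 2 bases and GAAA again, and the GAS as TTCNNNGAA, which can overlap each other. The ISRE letters were found before 19 of the 45 members (42.2%) and 3.94% of all genes, and the GAS letters before 12 members (26.7%) and 8.11% of all genes. Both were found before 6 members (13.3%) and 0.466% of all genes. A match is a description of the reference sequence and not of binding.

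The lung and heart of the same 6 mice were compared next, as the mean over both genotypes. Of the 45 members, 34 were called higher in lung and 1, Iigp1, higher in heart. Zbp1, among the 34, passed the filter only through the lungs. Among all 17666 genes tested, 30.1% were called higher and 21.2% lower in lung, 51.3% in all. The log2 difference (lung minus heart) was above 0 in 42 members, beside 59.2% of all genes, and lung and heart libraries did not overlap in 34 of the 45, beside 57.4% of all genes (32 higher in lung, beside 34.8%, and 2 lower, beside 22.6%). The median was 1.23 over the members and 0.31 over all genes tested. When libraries were centred on their medians, which moved the median of all genes to 0.09, 30 members were called higher and 2 lower in lung.

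**Figure D4:**
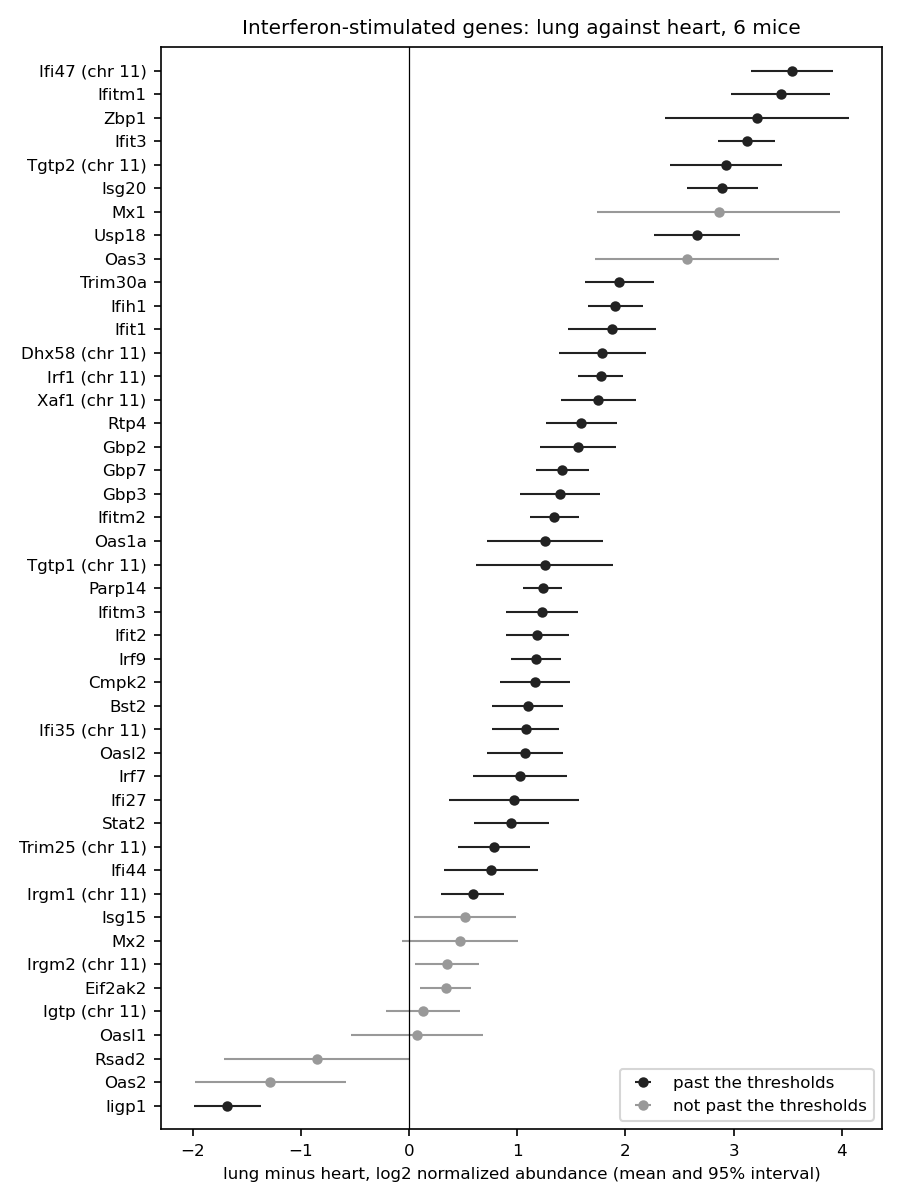
Lung minus heart difference of each member in log2 normalized abundance, with the 95% interval from limma over 12 libraries of 6 mice. Black points passed the thresholds, 34 of them above 0 and only Iigp1 below, and chr 11 marks members on the chromosome of Adam19.

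The largest difference was that of Ifi47, which ranged from 8.33 to 8.89 in lungs (median 8.81) and from 4.52 to 5.73 in hearts (median 5.31), 11.6-fold higher in lung (log2 3.54, standard error 0.17, adjusted p = 1.04e-09 from limma). Ifitm1 followed, from 8.12 to 8.81 in lungs (median 8.41) and from 4.15 to 5.86 in hearts (median 4.995), a 10.8-fold difference (adjusted p = 9.4e-09 from limma). Zbp1, a sensor of Z-form nucleic acid that triggers cell death, lay between 5.48 and 6.39 in lungs (median 5.95) and between 1.23 and 3.97 in hearts (median 2.76). Its fold change was 9.29 (adjusted p = 7.01e-06 from limma). In hearts alone Zbp1 did not pass the filter. It entered this comparison only through the lungs, where it was high, so its p-value gives no support. For none of Ifi47, Ifitm1 and Zbp1 did any heart reach the lowest lung.

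Ifit3 ranged from 10.39 to 10.85 in lungs (median 10.45) and from 6.93 to 7.79 in hearts (median 7.47), an 8.71-fold difference (adjusted p = 1.14e-10 from limma). The other IFIT genes differed less, Ifit1 by 3.67-fold and Ifit2 by 2.27-fold. Tgtp2 ranged from 8.60 to 9.10 in lungs (median 8.82) and from 5.02 to 6.56 in hearts (median 6.01), 7.61-fold higher in lung (adjusted p = 1.35e-07 from limma). The sum of Tgtp1 and Tgtp2 was 2.51 log2 units higher in lung, and that of Ifit3 and Ifit3b 3.06. Among the members called, Isg20, an exonuclease that degrades viral RNA, and Usp18 were next, with 7.44-fold and 6.31-fold higher levels in lung.

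By role, all 4 signal and transcription factors were called higher in lung, from 1.93-fold for Stat2 to 3.41-fold for Irf1. Of the 5 sensors and relays 4 were called, Zbp1, Ifih1 (MDA5, a sensor of long viral RNA, 3.75-fold), Dhx58 (3.45-fold) and Trim25 (1.72-fold), while Eif2ak2 (PKR, a kinase that stops translation) differed by 1.27-fold and missed the fold threshold (adjusted p = 0.0119 from limma). All 3 IFIT genes, all 4 membrane restriction factors and all 3 guanylate-binding proteins were called higher in lung, the last by 2.96-fold (Gbp2), 2.67-fold (Gbp7) and 2.63-fold (Gbp3). All 6 other induced genes were called too, from 1.69-fold for Ifi44 to 3.85-fold for Trim30a. Among the antiviral enzymes Isg20, Parp14 and Cmpk2 were called higher and Rsad2 (viperin) was not called, with a log2 difference of −0.85 (adjusted p = 0.0667 from limma).

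Of the 5 genes of the oligoadenylate synthetase family, whose active enzymes make the messenger that activates RNase L, only Oas1a (2.39-fold) and Oasl2 (2.10-fold) were called. Oas3 was 5.94-fold higher in lung, but it passed the filter only through the lungs and stayed below the required mean. Oasl1 differed by 1.05-fold (adjusted p = 0.816 from limma). Oas2 went the other way, from 3.12 to 4.36 in lungs (median 4.01) and from 4.53 to 5.94 in hearts (median 5.20), 2.43-fold higher in heart (adjusted p = 0.00276 from limma), and it too stayed below the required mean of 6. Neither Mx GTPase was called. Mx1 was 2.86 log2 units higher in lung (7.27-fold, adjusted p = 0.000233 from limma) and stayed below the required mean. It passed the filter only through the lungs, where it was high, so this p-value gives no support. Mx2 differed by 0.47 (adjusted p = 0.101 from limma). Their transcripts share 95.3% of 843 nucleotides, and the sum of both genes was 0.88 log2 units higher in lung. The transcript with the largest mean share of Mx1 in lungs, and that of Mx2 in both tissues, is annotated as loss-of-function. Mx1 was from 4.07 to 4.76 in lungs and at 2.30, 3.10, 0, 0, 1.65 and 2.10 in hearts, and a value of 0 leaves room for up to 3 estimated counts.

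The reference promoters of 5 members with unlike tissue differences, chosen among those with a match in the window, are set beside each other. Ifit3 was high in lung, Zbp1 higher in lung and below the filter in heart, Isg15 low in both tissues, and Oas2 and Rsad2 had negative differences. The windows are the 150 bases before the start in GRCm39, 5′ to 3′ on the strand of the gene, with the ISRE and GAS letters in capitals. They are chr19:34560749-34560898 for Ifit3 (forward strand), and on the reverse strand chr2:173060725-173060874 for Zbp1, chr4:156285304-156285453 for Isg15, chr5:120887934-120888083 for Oas2 and chr12:26506452-26506601 for Rsad2.
Ifit3: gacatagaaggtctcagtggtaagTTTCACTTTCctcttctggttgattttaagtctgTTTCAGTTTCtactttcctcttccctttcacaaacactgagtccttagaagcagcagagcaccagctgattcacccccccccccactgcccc
Zbp1: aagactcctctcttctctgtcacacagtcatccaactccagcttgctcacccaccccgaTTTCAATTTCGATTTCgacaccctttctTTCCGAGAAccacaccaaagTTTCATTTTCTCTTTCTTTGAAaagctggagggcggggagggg
Isg15: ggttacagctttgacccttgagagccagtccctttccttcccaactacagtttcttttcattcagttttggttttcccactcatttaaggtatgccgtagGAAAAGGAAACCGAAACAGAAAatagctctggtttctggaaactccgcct
Oas2: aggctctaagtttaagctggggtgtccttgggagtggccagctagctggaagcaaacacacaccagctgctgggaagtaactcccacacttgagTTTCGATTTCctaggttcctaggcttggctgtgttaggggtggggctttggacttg
Rsad2: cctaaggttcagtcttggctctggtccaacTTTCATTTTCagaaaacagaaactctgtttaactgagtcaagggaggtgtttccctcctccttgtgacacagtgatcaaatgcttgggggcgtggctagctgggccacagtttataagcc
Ifitm1, with the second largest difference, had neither motif before its canonical start and is not shown. In lungs a mean of 65.5% of its counts lay on another transcript, ENSMUST00000106040.8. Over all 300 bases, 12 of the 34 members called higher in lung, Iigp1, and 6 of the 10 that were not called had an ISRE match, and 9, 1 and 2 had a GAS match.

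Iigp1 (Irga6, chromosome 18, 60506680 to 60525706), an IRG effector, was the member called higher in heart. It ranged from 8.72 to 9.53 in lungs (median 8.80) and from 10.16 to 10.97 in hearts (median 10.64), so that every heart was above every lung (3.20-fold, log2 difference −1.68, standard error 0.14, adjusted p = 1.95e-07 from limma). Per length this was a TPM of 7.73 ± 3.27 in lungs and 24.5 ± 4.81 in hearts (SD, n = 6), behind Ifitm2 and Ifitm3 among the members in heart. The IRG family was thus split. Ifi47, Tgtp2, Tgtp1 and Irgm1 were called higher in lung, Iigp1 higher in heart, and Igtp (1.09-fold, adjusted p = 0.474) and Irgm2 (1.28-fold, adjusted p = 0.0332, both from limma) were not called. Irgm1 was called at 1.51-fold and fell below the fold threshold in 7 of the alternatives.

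Markers of most other cell types moved with the tissue. Ptprc (CD45, on all leukocytes) was at 12.04 to 12.65 in lungs and 7.47 to 8.04 in hearts. The summed B cell markers (3 of 3 called) were at 8.89 to 10.1 in lungs and 4.24 to 5.24 in hearts, T and NK cell markers (2 of 4 called) at 7.88 to 8.60 and 2.56 to 4.45, and neutrophil markers (3 of 4 called) at a mean of 10.2 and 3.54, where Ly6g was at 0 in all hearts. Macrophage markers (5 of 5 called) were at 12.7 to 12.9 and 11.5 to 11.9, endothelial markers (4 of 4 called) at 15.4 to 15.6 and 13.8 to 14.0, and plasmacytoid dendritic cell markers (2 of 3 called) at 11.6 to 12.1 and 11.3 to 11.8. The last sum is mostly Tcf4, which was not called, while Siglech (6.81 to 7.52 in lungs, 4.46 to 5.47 in hearts) and Ccr9 (5.20 to 6.78 and 0 to 1.58) were called higher in lung. Iigp1 and Oas2 went against all of these. Red cell markers (0 of 3 called) overlapped between the tissues, with sums of 12.4 to 16.7 in lungs and 12.4 to 15.3 in hearts. Of the 34 markers tested between tissues, 23 passed the filter in hearts alone, and the others entered only through the lungs. The part of these cells in the tissue differences was not tested. Between genotypes, 0 markers were called in either tissue. In the lung 5 of 34 had an unadjusted p under 0.05, beside 5.93% of all genes, with log2 differences (KO minus WT) of −0.62 for Siglecf (alveolar macrophages), −0.67 for Sftpc and 0.64 for Scgb1a1 (lung epithelium), 0.88 for Retnlg (neutrophils) and −0.84 for Myh6 (cardiomyocytes), all with an adjusted p of at least 0.806 from limma. In the heart 0 of 23 did. The part of these markers in the genotype differences of the members was not tested.

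Some libraries stood apart across the members. In the lung of WT replicate 3 the members lay a median of 0.17 log2 units above their lung means, 30 of 45 were above them, and 22 had their highest lung value there. In the heart of the same mouse they lay 0.25 below their heart means, 10 of 42 were above them, and 16 had their lowest heart value there. The hearts of WT replicate 1 (0.14, 35 of 42 above) and KO replicate 2 (0.13, 31 of 42 above) lay highest. Over all genes the medians of the 12 libraries stayed between −0.03 and 0.07. Heart WT replicates 2 and 3, the lowest in these genes, were also the shallowest hearts, at 20381284 and 18392292 estimated counts (31784742 to 35862932 in the others), and the part of depth was not tested. Without heart WT replicate 3 the median KO minus WT difference of the members in the heart moved from 0.14 to 0.05, and without heart WT replicate 1 to 0.26. In the lung it moved from −0.04 to 0.04 without WT replicate 3 and to 0.03 without KO replicate 2, a change of sign.

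**Figure D5:**
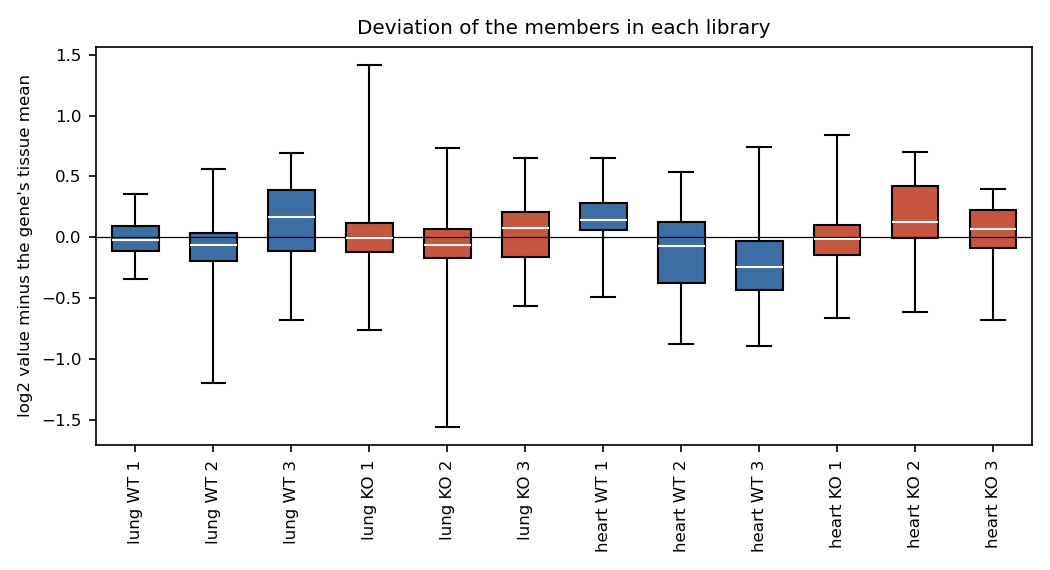
Deviation of each member from its mean over the 6 libraries of a tissue, in log2 units, as 1 box per library (white line median, box quartiles, whiskers the lowest and highest member; blue WT, red KO). The box of WT replicate 3 lies highest in lung (median 0.17) and lowest in heart (median −0.25).

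The rest of the pathway was examined with a list of 117 further genes. None of the 21 interferon genes reached the filter in any comparison, and 16 of them were listed at 0 in every library. Ifng was the highest, from 0.26 to 2.64 in lungs and at 0 in 5 of 6 hearts. The receptors and kinases were well detected. Ifngr1, a chain of the type II receptor, was at 11.31 ± 0.14 in lungs and 10.28 ± 0.13 in hearts (SD, n = 6). Il10rb, a chain that the type III receptor shares with the interleukin-10 receptor, was higher in heart, at 9.94 ± 0.44 in lungs and 11.69 ± 0.16 in hearts (SD, n = 6). The other type II chain, Ifngr2, was higher in heart too, at 9.78 ± 0.35 in lungs and 12.53 ± 0.10 in hearts (SD, n = 6), a log2 difference of −2.75 (adjusted p = 2.76e-09 from limma). Jak1, the kinase shared by all 3 interferon types, was at 12.33 ± 0.16 and 12.41 ± 0.09 (SD, n = 6) and was not called.

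Between genotypes 0 of 88 pathway genes were called in the lung and 0 of 81 in the heart, beside 0.0665% and 0.085% of all genes, and 6 and 5 had an unadjusted p under 0.05 (5.93% and 7.46% of all genes). In the interaction 0 of 89 were called and 12 had an unadjusted p under 0.05, beside 7.88% of all genes. Of the 6 receptor genes, 2 had such a p in the lung and 2 in the interaction. Between tissues 50 of 89 were called higher and 15 lower in lung, beside 30.1% and 21.2% of all genes. Rigi, the sensor of short viral RNA, was 1.84 log2 units higher in lung (adjusted p = 3.62e-09 from limma), whereas Mavs, the adaptor downstream of it, was 1.65 lower than in heart (log2 difference −1.65, adjusted p = 1.03e-06). Samhd1, which depletes nucleotides, was 2.46 log2 units higher in lung, and Pias1, a feedback inhibitor of the pathway, 1.24. Nampt, an enzyme of NAD synthesis, was higher in heart (log2 difference −1.91). So were the guanylate-binding proteins Gbp6 (−2.48) and Gbp10 (−2.05) and the IRG gene F830016B08Rik (−4.29), which were singled out after their values were seen.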

How the data were processed

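Strand-specific RNA-Seq of 12 libraries (lung and heart of 3 WT and 3 KO mice) was analysed from 2 tables of log2 values that the authors deposited, 1 of 55679 genes and 1 of 147907 transcripts. The authors quantified reads with Salmon against GENCODE vM33 transcripts (mm39); the submitters' processing notes also name STAR, cutadapt and limma 3.42.2. Transcript values are log2(1 + estimated count). Gene values carry a constant per library (−0.63 to 0.80), which held within 0.01 for at least 95.7% of single-transcript genes; how values of several transcripts were combined is not given in the sources used here. Genotypes were compared within each tissue with limma 3.58.1 in R 4.3.3 (empirical Bayes with a trend), with the filter and thresholds given above and Benjamini-Hochberg adjustment over all genes tested. The interaction and the tissue comparison used all 12 libraries. Tested on simulated data with 200 changed genes of mixed size, the lung comparison recovered 156, the heart 178, the interaction 141 and the tissue comparison 189. The changed genes were drawn from the more abundant genes only, and each was shifted by 1, 2 or 3 log2 units. Within a tissue, every genotype difference of a member in the main fit was smaller than these shifts. Recovery at the levels and differences of the members was not tested separately.

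The members and lists were chosen with earlier results of these data known. Values per library were given for the chromosome 11 members, the 5 members with the smallest p in each genotype comparison, and the largest called tissue differences. Usp18, Bst2, Oas2 and Mx1 were named with their values for other results. Tests and shares of transcripts were added after their values were seen. Mouse identifiers pair the lung and heart of an animal. Deviations from group means correlated between the 2 tissues of a mouse at r = −0.07 to 0.14. Gene and transcript positions and reference sequence come from GENCODE vM39 and GRCm39, and near-identical transcripts were found with blastn 2.17.0.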

Additional observations from a re-analysis of the deposited data

Results flagged for a closer look

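Isg15 stood out because its genotypes did not overlap in either tissue and differed in opposite directions. The KO minus WT difference in the lung minus that in the heart was −1.36 on the log2 scale, every KO lung was below every WT lung, and every KO heart was above every WT heart. The interaction was tested in limma over 17666 genes and its adjusted p was 0.533, so it did not pass the threshold. Opposite separation of this kind was seen in 0.998% of the genes tested in both tissues.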

How the results depend on the processing

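In both genotype comparisons and their interaction 0 members were called under every alternative run (15 in the lung, 15 in the heart and 21 for the interaction), and the lowest adjusted p of a member was 0.434, 0.0531 and 0.303. The first 2 belong to Xaf1 with summed transcripts. Between tissues the 23 alternatives called from 32 to 41 members, and leaving out 1 library gave 34 to 36. With the replicate block, which pairs the tissues of a mouse, 36 members were called between tissues (34 higher and 2 lower in lung) and 0 in the interaction, in which 2 of all genes were called instead of 1. Member transcripts called ranged from 0 to 2 in the lung and 0 to 1 in the heart when 1 library was left out, with 2 and 1 reached without WT replicate 1. In each tissue 1 of these was ENSMUST00000108836.2 of Irgm2, which then passed the filter only through the KO libraries. Small genotype differences changed sign as single libraries were left out. In the lung they ranged from −0.26 to 0.14 for Irgm1, −0.23 to 0.19 for Xaf1 and −0.11 to 0.14 for Tgtp2. In the heart they ranged from −0.088 to 0.28 for Dhx58, −0.052 to 0.21 for Ifi35, −0.040 to 0.40 for Igtp, −0.29 to 0.28 for Tgtp1 and −0.18 to 0.59 for Tgtp2. With limma-voom Tgtp2 in the lung was −0.0020 and Tgtp1 in the heart −0.017, and with libraries centred on their medians Tgtp1 in the heart was −0.0042. Between tissues Igtp was −0.090 with centred libraries and −0.022 in KO mice only. The causes were not tested. Of the other values of named genes, 848 kept their direction and side of the threshold, 12 fell below it and 1 passed it.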

Other observations

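Another pair of IRG genes, Gm4951 and F830016B08Rik on chromosome 18, was higher in every KO lung than in every WT lung without being called. Such a separation was seen in 6.41% of all genes tested there. The pair was singled out after its values were seen. In the lung both genes passed the filter only through the KO libraries, in which they were high, so their p-values there give no support. The value of Gm4951 was 0 in the 3 WT lungs and 4.37, 3.49 and 4.29 in KO lungs (adjusted p = 0.170 from limma). In hearts it was at 1.45, 0 and 1.66 in WT and at 2.47, 2.67 and 3.72 in KO mice. F830016B08Rik was at 2.05, 1.99 and 1.97 in WT and at 4.17, 4.17 and 4.09 in KO lungs (log2 difference 2.14, standard error 0.46, adjusted p = 0.639 from limma). In hearts it was at 7.59, 7.01 and 6.44 in WT and at 7.42, 7.90 and 7.80 in KO mice, with overlapping groups. The chromosome 18 neighbour Iigp1 overlapped between genotypes in both tissues, at 8.73, 8.77 and 8.83 in WT and 9.04, 8.72 and 9.53 in KO lungs.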
